A study of Mus musculus with 8 samples.

Results

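The gene set described here is the interferon-stimulated genes of blood monocytes (MCs), 44 genes that cells switch on when they sense interferon, followed across 2 MC subsets and 2 mouse models of diabetes. The members were chosen by gene symbol from a written list, and that list was selected on the values of all 8 libraries, so the levels and differences of the members below are a description and not a test. All 44 listed symbols were found among the 16486 genes of the table. The study sorted CD11b+ Ly6G- MCs from blood into a Ly6C-high and a Ly6C-low subset and sequenced their RNA in bulk. Control (CT) mice were C57/BL6, T1DM mice were C57/BL6 given streptozotocin (STZ), a toxin of the insulin-producing beta cell, in 5 daily doses of 50 mg/kg that began at the age of 8 weeks, and T2DM mice were db/db, which carry a mutation of the leptin receptor and become obese and diabetic. All mice were 20 to 22 weeks old and each library holds RNA pooled from 5 mice. There were 2 libraries of each CT subset and 1 library of each subset for either diabetes model, so no diabetic group has a replicate here. The methods describe duplicates for every group, and second libraries of the diabetic groups were not analysed here. They name 1 pool of mice per group and then sequencing in duplicate, so both CT libraries of a subset appear to share their mice, and p-values built on their spread measure technical and not animal variation. A NextSeq instrument read the CT libraries and a HiSeq the diabetic ones, and the effects of sequencer and of diabetes cannot be told apart in any diabetic-minus-CT difference. The comparisons ask how the subsets differ, and how STZ and db/db diabetes change each of them.

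Type I interferons bind a receptor made of IFNAR1 and IFNAR2, and the kinases JAK1 and TYK2 then activate transcription factors of the STAT family, which join IRF9 and bind a short DNA motif, the interferon-stimulated response element, in front of target genes. The proteins made from these targets sense foreign RNA or DNA, block the steps of viral growth, tag proteins with the ubiquitin-like ISG15, call in lymphocytes, or amplify and damp the response itself. In resting blood MCs a low, tonic interferon signal keeps part of this programme on. Ly6C-high MCs are the classical, inflammatory subset of the mouse, and Ly6C-low MCs are the nonclassical, patrolling subset.

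Some of the promoters show the motif that names the response. From those with a match, 6 are printed because they belong to members on which results below turn. Each is 80 bases upstream of the RefSeq transcription start (GRCm38.p6, the mm10 build), read 5′ to 3′ on the strand of the gene, with every match to GAAANNGAAA or its reverse complement TTTCNNTTTC in capitals.
Isg15, chr4:156200846-156200925, minus strand: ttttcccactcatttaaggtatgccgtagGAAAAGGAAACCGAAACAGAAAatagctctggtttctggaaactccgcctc
Ifit1, chr19:34640759-34640838, plus strand: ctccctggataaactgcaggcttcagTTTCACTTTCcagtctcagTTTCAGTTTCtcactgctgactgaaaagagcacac
Ifit3, chr19:34583355-34583434, plus strand: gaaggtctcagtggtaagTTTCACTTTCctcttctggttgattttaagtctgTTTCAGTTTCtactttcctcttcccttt
Ifit3b, chr19:34607751-34607830, plus strand: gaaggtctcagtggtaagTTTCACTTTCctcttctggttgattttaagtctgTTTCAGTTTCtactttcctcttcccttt
Cxcl10, chr5:92349058-92349137, minus strand: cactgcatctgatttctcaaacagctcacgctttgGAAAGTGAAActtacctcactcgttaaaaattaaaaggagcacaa
Rsad2, chr12:26456528-26456607, minus strand: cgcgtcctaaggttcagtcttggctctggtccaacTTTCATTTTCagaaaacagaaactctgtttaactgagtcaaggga
Isg15 holds 3 overlapping matches in a row, Ifit1, Ifit3 and Ifit3b hold 2 each, and Cxcl10 and Rsad2 hold 1 each. The stretches of Ifit3 and Ifit3b are the same letter for letter, and 188 of 218 aligned bases before the 2 start sites (86.2%) are identical.

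Over the whole window from 250 bases before to 50 bases after the start, searched on both strands, 15 of the 33 members with a RefSeq promoter entry (45.5%) held at least 1 match. The share was 4.08% over 11654 genes of the table with an entry and 3.44% over all 32851 promoter windows of this length. The other members with a match were Ifih1, Ddx58, Trim30a, Ifitm3, Bst2, Stat2, Slfn5, Phf11b and Eif2ak2. A match is a run of letters and not a shown binding site. In T2DM against CT Ly6C-high MCs the median difference was -1.71 (log2) over the 15 members with a match, -1.23 over the 18 with an entry and none, and -1.58 over the 11 without an entry, and each of the 3 groups ranged widely.

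Values are log2 normalized levels as deposited, on which 1 unit is a 2-fold change, and a gene is compared only with itself across libraries because the table does not state whether transcript length was divided out. The table gives levels rather than read counts, and a depth per library cannot be read from it, although the study's methods state 1 nominal read depth for every sample. Where 4 values of a gene are given for a subset, they are those of the 2 CT libraries, T1DM and T2DM, in that order. The subset labels were checked against 8 classical and 10 nonclassical MC genes. Ly6c2, which encodes the sorted antigen, stood at 8.56 to 8.72 in the 4 Ly6C-high libraries and at 2.69 to 4.07 in the 4 Ly6C-low libraries, so the libraries carry their labels. The summed linear level of the classical list was 11282 to 28820 in Ly6C-high and 1119 to 1477 in Ly6C-low libraries. That of the nonclassical list was 1396 to 2761 and 3169 to 4124. In CT mice it was 2738 and 2761 against 3169 and 3175, and only 7 of the 10 genes were lower in Ly6C-high. The nonclassical marker Cx3cr1 was higher in CT Ly6C-high (8.59 and 8.61) than in CT Ly6C-low (7.76 and 7.78). So were Itgal (10.16 and 10.11 against 9.90 and 9.87) and, by 0.18, Nr4a1. Ly6C-low libraries also carried transcripts of other cells. The summed level of 12 B cell genes was 6111 to 7350 in them against 369 to 722 in Ly6C-high, and that of 10 NK cell genes was 187 to 1017 against 31.4 to 143. In bulk RNA, fewer cells of a type and less RNA per cell cannot be told apart. Lepr, mutated in db/db mice, differed more between the 2 CT Ly6C-low libraries (0.74 and 4.23) than between mouse groups, and a gene total does not check that mutation.

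In CT mice interferon-stimulated genes were higher in the Ly6C-high subset as a group. The difference Ly6C-high minus Ly6C-low was above 0 in 44 of 44 members and above 1 in 33, where 8.16% of all genes were above 1, from 0.13 for Samd9l to 3.44 for Cxcl10, with a median of 1.63 (3.11-fold) against -0.09 over all genes. The IFIT family, cytoplasmic proteins that bind viral RNA, had a median difference of 2.57 over 4 genes, and the Mx GTPases, which trap viral capsids, one of 2.57 over 2 genes. Members of the PARP and DTX3L group stood at a median of 1.15, the 6 antiviral enzymes and restriction factors at 1.10 and the 5 genes of ISG15 conjugation at 1.35. Replicates were close in the Ly6C-high subset, where the median gap between the 2 CT libraries was 0.13 over the members and the widest was 0.77 (Ifi44). In the Ly6C-low subset the median gap was 0.24, 3 members were over 1 apart, and Cxcl10 was 2.82 apart, so its subset difference rests on an uncertain Ly6C-low level. By limma's moderated test over all 16486 genes, with calls at an adjusted p under 0.01 and a log2 difference past 1, 16 members were called higher and 0 lower, where 2.1% of all genes were called higher. Because the members were listed with these libraries in view, nothing is read from that count, and it fell to 0 for the members and for all genes when any 1 of the 4 CT libraries was left out.

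The same direction was seen in T1DM mice, and in T2DM mice the subset difference was smaller in size. In T1DM the difference Ly6C-high minus Ly6C-low was above 0 in 42 members and above 1 in 28 (11% of all genes were above 1), with a median of 1.37, and the 2 members below 0 were Isg20 at -0.09 and Ifi44 at -0.28. In T2DM the median was 0.25, 30 members were above 0, 7 were above 1 (11.3% of all genes) and 3 were below -1 (17.8% of all genes). The 7 were Cxcl10, Slfn5, Ifi204, Ifi27l2a, Ifitm3, Parp12 and Cmpk2, and the 3 were Phf11d at -1.65, Ifit3b at -1.47 and Phf11b at -1.40. The IFIT family went from a median of 2.57 in CT and 3.02 in T1DM to 0.30 in T2DM, and Mx1 from 2.39 and 2.30 to 0.00. Ifi204, an interferon-induced DNA sensor, kept most of its difference (2.71, 2.69 and 2.17), as did Slfn5 (2.80, 3.39 and 2.22), a member of the Schlafen family. Over all mouse groups, with the group as a covariate, 22 members were called higher in Ly6C-high and 0 lower, where 5.37% of all genes were called higher, and without the T1DM libraries 10 members were called. The T2DM subset difference minus the CT one was below 0 in 44 members by limma, with a median of -1.03, but 0 members passed, as 0% of the 16486 genes did. In that fit 37 members and 2291 genes had an unadjusted p under 0.05, and the lowest adjusted p of a member was 0.101. The T1DM interaction had a median of -0.03 over the members, and 0 members and 0 genes passed, with 6 members and 1810 genes at an unadjusted p under 0.05.

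**Figure D1:**
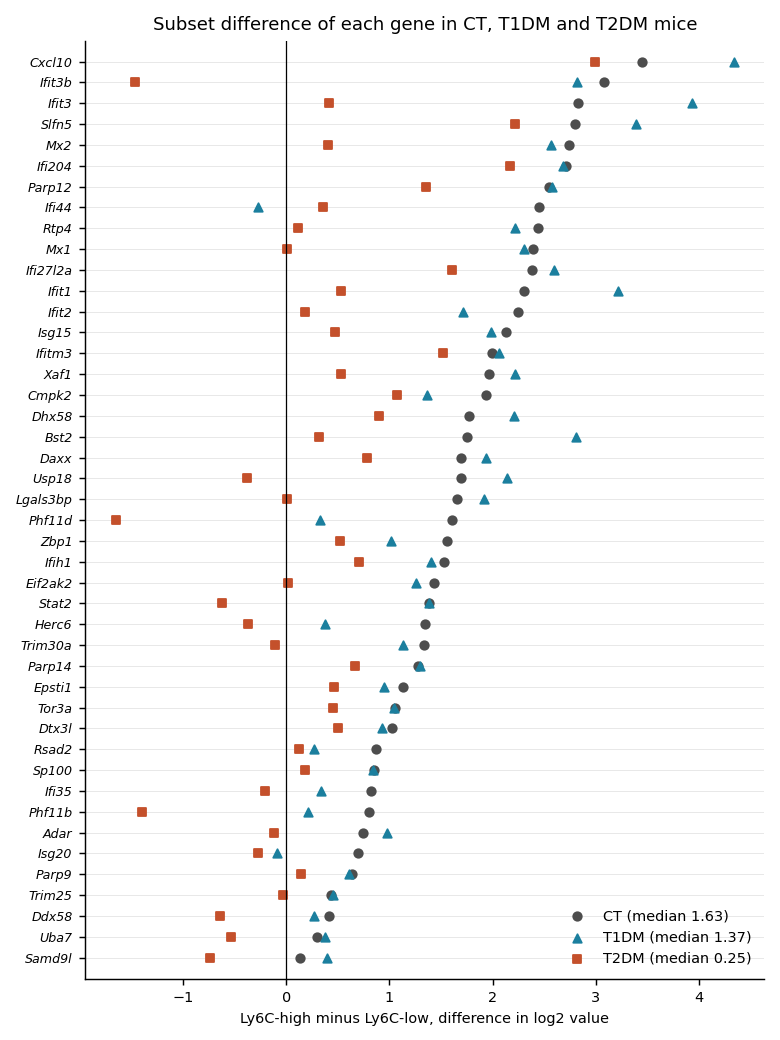
Difference in log2 value between Ly6C-high and Ly6C-low MCs for each of the 44 genes, ordered by the difference in CT mice; circles are CT (means of 2 libraries per subset), triangles T1DM and squares T2DM (1 library per subset). Squares lie around 0 with a median of 0.25, while circles lie above 0 throughout with a median of 1.63.

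The T2DM Ly6C-high library held the lowest interferon-stimulated programme among the 4 Ly6C-high libraries. All 44 members were lower in it than in both CT Ly6C-high libraries (35.5% of all genes), 32 of them by more than 1, and all 44 were also below T1DM Ly6C-high, where 28.4% of all genes lay below the 3 other Ly6C-high libraries. The difference T2DM minus CT had a median of -1.38 (2.60-fold lower) and ran from -4.87 for Ifit3b to -0.58 for Trim25, against a median of 0.02 over all genes. It was below -1 in 34 members, where 7.89% of all genes were below -1. Leaving out either CT library moved the median only to between -1.39 and -1.40. The median log2 level of the members was 6.66 and 6.76 in the CT Ly6C-high libraries, 6.59 in T1DM Ly6C-high and 5.24 in T2DM Ly6C-high, close to the 5.25 and 5.28 of CT Ly6C-low. In 31 members (70.5%) the T2DM Ly6C-high library was at or below the highest Ly6C-low library, near the 68% of all genes, and in 11 (25%) it was the lowest of all 8 libraries, against 17.8% of all genes. By contrast the 3 Ly6C-high libraries of CT and T1DM mice lay above all 4 Ly6C-low libraries in 41 members, where 19.1% of all genes did so, the exceptions being Ddx58, Isg20 and Ifi44.

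Other lists differed in the same library. The summed linear level of the 10 NK cell genes was 31.4 in T2DM Ly6C-high against 105 and 109 in CT and 143 in T1DM Ly6C-high, all 10 were below -1 against CT, and Ncr1 stood at 1.64 against 3.53 and 3.15 in CT. The 8 platelet genes summed to 215 against 496 and 453 in CT. The classical MC list summed to 28820 against 11411 and 11282, with 5 of its 8 genes above 1 against CT. Fn1 weighed most in that sum, at 13.74 against 12.26 and 12.24 in CT, while Ly6c2 differed by -0.01. The nonclassical MC list summed to 1396 against 2738 and 2761 in CT and 2069 in T1DM Ly6C-high. In T2DM all 10 of its genes were below 0 and 6 below -1 against CT. The 12 B cell genes summed to 369 against 510 and 502 in CT and 722 in T1DM Ly6C-high. In T2DM 10 of them were below 0 against CT, while Cr2 (1.02) and Bank1 (0.58) were above. The 8 neutrophil genes summed to 850 against 480 and 475 without moving as one, since S100a8 stood at 6.90 against 1.14 and 1.15 and Retnlg at -1.55 against 1.98 and 1.46, while Csf3r, which MCs express too, stood at 9.36 against 8.84 and 8.83. The 5 genes listed for plasmacytoid dendritic cells, which are strong makers of interferon, summed to 361 against 463 and 357. Irf8, at 7.76, and Tcf4, at 6.92, weighed most in the sum of 361, which does not by itself give the level of these cells. Siglech, which defines plasmacytoid dendritic cells, stood between -0.02 and 0.98 in all 8 libraries. The part of these lists in the lower interferon-stimulated genes was not tested.

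**Figure D2:**
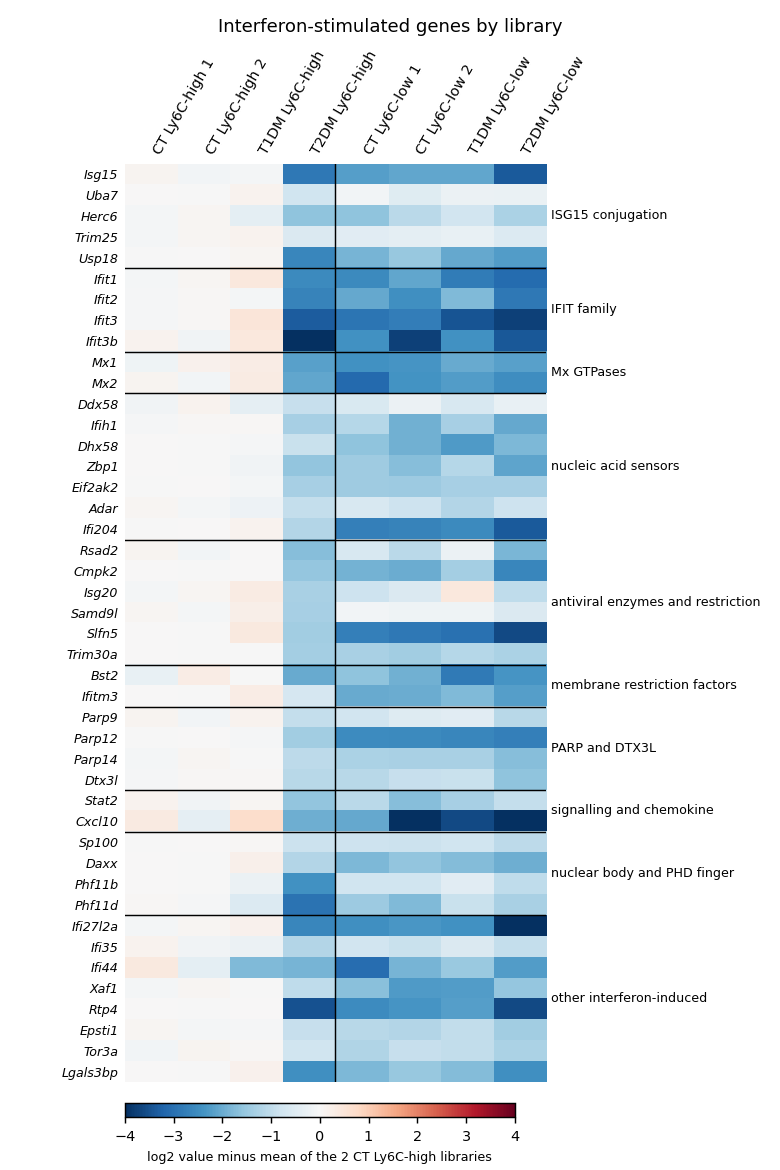
Each row is 1 of the 44 genes, grouped by role, and each column 1 of the 8 libraries; colour is the log2 value minus its mean over both CT Ly6C-high libraries, with colours saturated at 4 in either direction. The T2DM Ly6C-high column is blue in all 44 rows, and most Ly6C-low columns are blue as well.

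The ISG15 system tags proteins with ISG15 by way of the E1 enzyme UBA7 and the ligases HERC6 and TRIM25, and USP18 removes the tag and damps the interferon receptor. Isg15 stood at 4.44 and 4.20 for CT, 4.23 for T1DM and 1.45 for T2DM among the Ly6C-high libraries, and at 2.12 and 2.26 for CT, 2.24 for T1DM and 0.97 for T2DM among the Ly6C-low ones. Usp18 stood at 4.67 and 4.73 for CT, 4.78 for T1DM and 2.08 for T2DM in Ly6C-high MCs, and at 2.84 and 3.17, 2.65 and 2.46 in Ly6C-low MCs, in the same order of groups. For both genes the T2DM Ly6C-high library fell outside the other Ly6C-high libraries by more than 2 units, and for Usp18 it was the lowest of all 8. Herc6 had 6.68 and 6.82 for CT, 6.35 for T1DM and 5.13 for T2DM in Ly6C-high MCs. In Ly6C-low MCs it had 5.14 and 5.65, 5.98 and 5.50. In T2DM its order of the subsets was turned, but by -0.37, less than the gap of 0.51 between its 2 CT Ly6C-low libraries. Uba7 and Trim25 differed least, with T2DM minus CT at -0.79 and -0.58 in Ly6C-high MCs, yet Trim25 at 7.76 was still below its CT values of 8.27 and 8.40, which were 0.13 apart.

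The IFIT family had the widest difference of the role groups, with T2DM minus CT values between -4.87 and -2.53 in Ly6C-high MCs. Ifit1 stood at 4.78 and 4.94 for CT, 5.28 for T1DM and 2.32 for T2DM in Ly6C-high MCs, and at 2.31 and 2.79 for CT, 2.06 for T1DM and 1.79 for T2DM in Ly6C-low MCs. Ifit2 stood at 5.89 and 5.98, 5.87 and 3.25 in Ly6C-high and at 3.90 and 3.48, 4.16 and 3.07 in Ly6C-low MCs, in the same order of groups. Ifit3, whose protein binds IFIT1, stood at 5.64 and 5.72 for CT, 6.16 for T1DM and 2.36 for T2DM in Ly6C-high MCs, and at 2.77 and 2.93, 2.23 and 1.94 in Ly6C-low MCs. In each of these 3 genes the T2DM Ly6C-high library lay among the Ly6C-low libraries. Ifit3b, a close copy of Ifit3, stood at 3.80 and 3.53 for CT, 4.08 for T1DM and -1.20 for T2DM in Ly6C-high MCs, and at 1.23 and -0.06, 1.26 and 0.27 in Ly6C-low MCs. Of its 31-base sequences 54.1% also occur in Ifit3, and 61.8% of those of Ifit3 occur in Ifit3b, so reads may have been split between them and the -4.87 of Ifit3b is uncertain. T2DM minus CT in Ly6C-high MCs was -2.53 for Ifit1, -2.68 for Ifit2 and -3.32 for Ifit3.

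The 2 Mx GTPases had similar patterns. Mx1 stood at 6.87 and 7.22 for CT, 7.33 for T1DM and 4.88 for T2DM in Ly6C-high MCs, and at 4.62 and 4.69, 5.03 and 4.87 in Ly6C-low MCs. Mx2 stood at 4.78 and 4.59, 5.01 and 2.59 in Ly6C-high and at 1.59 and 2.30, 2.45 and 2.19 in Ly6C-low MCs. In T2DM the subsets came to the same level for Mx1, and Mx2 stayed 0.41 higher in Ly6C-high MCs. Neither was lower in T2DM than in CT Ly6C-low MCs, where the differences were 0.22 and 0.24. Mx1 and Mx2 carry known loss-of-function alleles in common laboratory strains, which gene totals do not show.

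**Figure D3:**
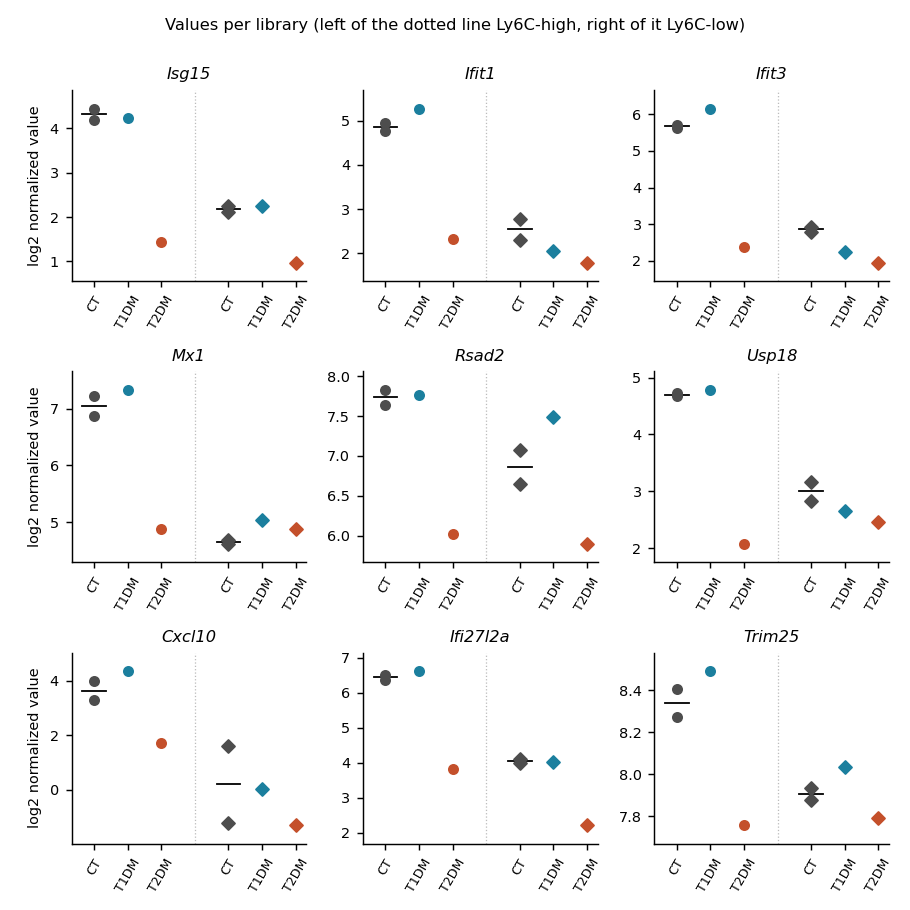
Log2 normalized value of 9 genes in each library, Ly6C-high as circles left of the dotted line and Ly6C-low as diamonds right of it, with a bar at the mean of the 2 CT libraries; each panel has its own axis, which does not start at 0. In all 9 panels the T2DM Ly6C-high point lies below the CT and T1DM Ly6C-high points, with differences from the CT mean between -0.58 for Trim25 and -3.32 for Ifit3.

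Sensors of foreign nucleic acid were lower by smaller amounts. The RIG-I-like receptors, which detect viral RNA, had T2DM minus CT in Ly6C-high MCs of -0.93 for Ddx58 (RIG-I), -1.33 for Ifih1 (MDA5) and -0.89 for Dhx58 (LGP2). Zbp1, a sensor of Z-form nucleic acid that can trigger necroptosis, stood at 7.52 and 7.51 for CT, 7.38 for T1DM and 5.93 for T2DM in Ly6C-high MCs, and at 6.09 and 5.81, 6.36 and 5.41 in Ly6C-low MCs. Eif2ak2, the kinase PKR that shuts down translation on binding double-stranded RNA, stood at 7.61 and 7.67, 7.57 and 6.33 in Ly6C-high and at 6.22 and 6.20, 6.32 and 6.31 in Ly6C-low MCs. For Eif2ak2 the T2DM Ly6C-high library thus differed by 0.01 from the T2DM Ly6C-low one. Ifi204 stood at 8.88 and 8.91 for CT, 9.04 for T1DM and 7.71 for T2DM in Ly6C-high MCs, and at 6.15 and 6.21, 6.35 and 5.53 in Ly6C-low MCs. Its T2DM level stayed above every Ly6C-low library, although 34.6% of its 31-base sequences occur in other genes. Adar, which edits double-stranded RNA, was -0.95 in the same comparison, and Ddx58 differed little between the CT subsets (0.42).

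Among enzymes and restriction factors all 6 members were below -1 for T2DM minus CT in Ly6C-high MCs, with a median of -1.38. Rsad2 (viperin), which makes a chain-terminating nucleotide, stood at 7.83 and 7.64 for CT, 7.76 for T1DM and 6.02 for T2DM in Ly6C-high MCs, and at 7.08 and 6.65, 7.49 and 5.90 in Ly6C-low MCs. Cmpk2, a mitochondrial nucleotide kinase encoded next to Rsad2, stood at 5.91 and 5.91, 5.93 and 4.38 in Ly6C-high and at 4.01 and 3.94, 4.57 and 3.31 in Ly6C-low MCs. Both genes were lowest in T2DM within each subset, and in Ly6C-low MCs both were above the CT libraries in T1DM. Isg20, a 3′ to 5′ exonuclease, stood at 6.64 and 6.77 for CT, 7.03 for T1DM and 5.41 for T2DM in Ly6C-high MCs, and at 5.89 and 6.13, 7.12 and 5.69 in Ly6C-low MCs, and its T1DM minus CT difference in Ly6C-low MCs, 1.11, was the only one of the 44 above 1. Samd9l, a growth and translation inhibitor, stood at 7.80 and 7.66, 7.95 and 6.40 in Ly6C-high and at 7.63 and 7.57, 7.56 and 7.14 in Ly6C-low MCs, so that the CT subsets were nearly equal. Quantile normalization across the libraries turned its CT subset difference to -0.16. Slfn5 stood at 9.66 and 9.62, 10.05 and 8.26 in Ly6C-high and at 6.92 and 6.77, 6.66 and 6.04 in Ly6C-low MCs. Trim30a, a TRIM family protein, had a T2DM minus CT difference of -1.37 in Ly6C-high MCs and of 0.07 in Ly6C-low MCs.

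At the membrane, Bst2 (tetherin), which holds budding virus on the cell, stood at 3.47 and 4.04 for CT, 3.74 for T1DM and 1.72 for T2DM in Ly6C-high MCs, and at 2.16 and 1.84, 0.94 and 1.40 in Ly6C-low MCs. Ifitm3, which blocks viral fusion in endosomes, stood at 10.64 and 10.60, 10.92 and 9.95 in Ly6C-high and at 8.62 and 8.64, 8.86 and 8.43 in Ly6C-low MCs. The T2DM difference of Ifitm3 in Ly6C-high MCs, -0.67, was among the 2 smallest of the set, and 20.5% of its 31-base sequences occur in other genes. Of the ADP-ribosyltransferases and their partner, T2DM minus CT in Ly6C-high MCs was -0.97 for Parp9, -1.38 for Parp12, -1.06 for Parp14 and -1.11 for Dtx3l, the ubiquitin ligase that pairs with PARP9. Parp12 was the one of these 4 with a wide subset difference, namely 2.54 for CT, 2.57 for T1DM and 1.36 for T2DM mice.

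Stat2, part of the factor that drives the whole set, stood at 7.60 and 7.31 for CT, 7.52 for T1DM and 5.87 for T2DM in Ly6C-high MCs, and at 6.38 and 5.76, 6.14 and 6.50 in Ly6C-low MCs. Its T2DM minus CT difference was -1.58 in Ly6C-high MCs and 0.43 in Ly6C-low MCs, where the 2 CT libraries themselves lay further apart than that. Cxcl10, a chemokine that draws activated T and NK cells through CXCR3, stood at 3.99 and 3.29 for CT, 4.35 for T1DM and 1.70 for T2DM in Ly6C-high MCs, and at 1.60 and -1.22, 0.02 and -1.30 in Ly6C-low MCs. It had the highest subset difference of the set in each of the 3 mouse groups. Sp100, a nuclear body protein, and Daxx, a histone chaperone that joins it there, had T2DM minus CT differences of -0.86 and -1.16 in Ly6C-high MCs. Phf11d stood at 6.27 and 6.19 for CT, 5.67 for T1DM and 3.28 for T2DM in Ly6C-high MCs, and at 4.76 and 4.48, 5.34 and 4.93 in Ly6C-low MCs. Phf11b stood at 6.13 and 6.10, 5.89 and 3.69 in Ly6C-high and at 5.33 and 5.30, 5.68 and 5.09 in Ly6C-low MCs. Both PHD finger genes were thus higher in Ly6C-low than in Ly6C-high MCs in T2DM, the reverse of CT, and 62.9% of the 31-base sequences of Phf11b occur in other genes.

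Of the 8 remaining members, Rtp4, a chaperone of membrane receptors, stood at 5.73 and 5.69 for CT, 5.73 for T1DM and 2.23 for T2DM in Ly6C-high MCs, and at 3.19 and 3.36, 3.51 and 2.11 in Ly6C-low MCs. Ifi27l2a, a mitochondrial protein gene strongly induced by interferon, stood at 6.37 and 6.51, 6.62 and 3.83 in Ly6C-high and at 4.00 and 4.12, 4.03 and 2.22 in Ly6C-low MCs. Lgals3bp, a secreted glycoprotein that binds galectin, stood at 7.59 and 7.58, 7.75 and 5.14 in Ly6C-high and at 5.79 and 6.06, 5.84 and 5.13 in Ly6C-low MCs. In these 3 genes the T2DM library was the lowest of its subset in both subsets. Ifi44 had the lowest T1DM minus CT difference of the 44 members in Ly6C-high MCs. It stood there at 4.24 and 3.46 for CT, 2.07 for T1DM and 1.98 for T2DM. In Ly6C-low MCs it stood at 0.79 and 2.00, 2.35 and 1.63. Its T1DM minus CT difference of -1.77 in Ly6C-high MCs compares with a CT gap of 0.77. Xaf1, Epsti1, Tor3a and Ifi35 were lower in T2DM than in CT Ly6C-high MCs by values from -1.16 for Ifi35 to -0.80 for Tor3a.

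In T1DM mice the set stood near the CT level. In Ly6C-high MCs the T1DM minus CT difference had a median of 0.05, with 26 members above 0 and 18 below. In this comparison 0 were above 1 (5.11% of all genes) and Ifi44 was the 1 member below -1 (4.94% of all genes). The T1DM library lay above both CT libraries in 22 members, against 36.3% of all genes, below both in 12, against 33.5%, and between them in 10, and the highest difference was 0.71 for Cxcl10. In Ly6C-low MCs the median was 0.12. Isg20 was the 1 member above 1 (4.03% of all genes) and Bst2, at -1.06, the 1 member below -1 (4.78% of all genes). Moving the reference to 1 CT library changed the sign of 4 and 6 members in the Ly6C-high and of 4 and 6 in the Ly6C-low comparison, so these differences lie within the spread of the CT libraries for those genes.

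In Ly6C-low MCs of T2DM mice the set was lower by less than in Ly6C-high MCs. The T2DM minus CT difference had a median of -0.29, 33 members were below 0 and 30 lay below both CT libraries (37% of all genes), and 4 were below -1, where 5.68% of all genes were below -1. The 4 were Ifi27l2a at -1.84, Cxcl10 at -1.49, Isg15 at -1.22 and Rtp4 at -1.16, of which Cxcl10 lay within reach of its own CT gap of 2.82. Xaf1 and Stat2, at 0.43 each, were the highest. The median level of the members was 5.12 in T2DM Ly6C-low against 5.25 and 5.28 in CT and 5.66 in T1DM. Beside this, the summed level of the NK cell genes in Ly6C-low libraries was 187 in T2DM against 724 and 710 in CT and 1017 in T1DM, that of the B cell genes 7350 against 6111 and 6137, and that of the neutrophil genes 306 against 159 and 147, and their part in the difference was not tested.

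**Figure D4:**
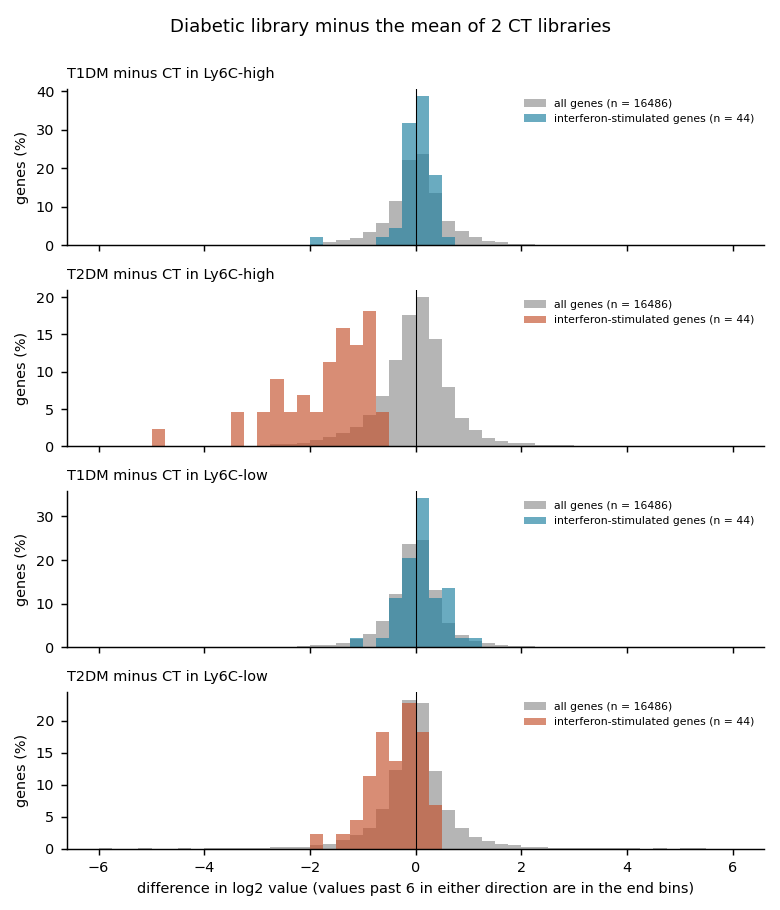
Distribution of the difference in log2 value between each diabetic library and the mean of the 2 CT libraries of its subset, as the percentage of genes per bin of 0.25, for all 16486 genes in grey and the 44 interferon-stimulated genes in colour. The coloured bars lie wholly below 0 only for T2DM Ly6C-high MCs, with a median of -1.38, and near 0 for both T1DM comparisons.

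The 2 diabetic models were run on the same sequencer, so their comparison is free of that difference. The methods do not name the background strain of the db/db mice. Effects of strain, of the leptin receptor mutation and of diabetes therefore cannot be told apart in T2DM against T1DM or against CT. In Ly6C-high MCs all 44 members were lower in T2DM than in T1DM, with a median of -1.42, and 32 were below -1, where 10.8% of all genes were below -1. The range was -5.28 for Ifit3b to -0.09 for Ifi44. In Ly6C-low MCs 38 members were lower in T2DM, with a median of -0.42, and 8 were below -1, where 7.97% of all genes were. Over both subsets together limma called 2 members lower, Rsad2 by -1.66 and Ifi27l2a by -2.30, and 0 higher, where 0.388% of all genes were called lower, and the median over the 44 members was -0.96. In that fit the 2 subsets of a model stand in for replicates, although both appear to come from the same pool of mice. Its p-values therefore do not measure variation between animals. A change confined to 1 subset counts as spread in it. Without the T2DM Ly6C-low library 14 members were called, and leaving out any other 1 library gave 0 or 1. The T2DM and T1DM differences from CT share the CT libraries and are not independent of each other.

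The genes that receive, relay and start the interferon signal were followed from a list of 51 symbols, of which 41 were in the table. The absent symbols Sting1 and Mb21d1 are other names of Tmem173 and Cgas, which were in it. Of the interferon genes themselves it held Ifng, the type II interferon, and Ifnk, a type I interferon mostly of skin, and Ifnb1 and the listed Ifna genes were not analysed here. In CT mice 6 of the 41 rose in Ly6C-high against Ly6C-low MCs by limma and 0 fell, where 2.1% of all genes rose, and since the list was chosen with earlier results known nothing is read from the count. Among them were Irf7, the master factor of type I interferon production (log2 difference 2.36 ± 0.14 SE, adjusted p = 0.00662 by limma), Samhd1, a nucleotide hydrolase (1.41 ± 0.03, adjusted p = 0.00207), Myd88, the adaptor of most Toll-like receptors (1.39 ± 0.11, adjusted p = 0.00874), and the receptor chains Ifnar2 (1.14 ± 0.06, adjusted p = 0.00591) and Ifngr2 (1.14 ± 0.05, adjusted p = 0.00519). These calls too were lost when any 1 CT library was left out, as no gene of the table was then called. Over all mouse groups 9 of the 41 rose, where 5.37% of all genes did. The 1 that fell was Ifng, by -2.97 ± 0.46 (adjusted p = 0.00122 by limma). In Ly6C-high MCs Ifng stood at -1.95 and -1.94 for CT and at -2.25 for both T1DM and T2DM. Values this low make the size of the fall uncertain. NK cells also express Ifng. In every mouse group the summed level of the NK cell genes was lower in Ly6C-high than in Ly6C-low libraries. The part of NK cells in the fall was not tested.

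Both genes of the type I interferon receptor stood near their CT levels in T2DM Ly6C-high MCs. Ifnar1 stood at 7.32 and 7.63 for CT, 7.38 for T1DM and 7.57 for T2DM in Ly6C-high MCs, and Ifnar2 at 7.93 and 7.89, 7.83 and 7.88. Of the 4 other receptor genes Il10rb differed most, at 6.29 against 5.60 and 5.74 in CT. The kinase genes were also near CT, with T2DM minus CT at -0.32 for Jak1 and -0.17 for Tyk2. Of the 41 genes 2 were below -1 in this comparison, where 7.89% of all genes were. The 2 included Irf7, which is itself induced by interferon. Irf7 stood at 7.23 and 7.30 for CT, 6.92 for T1DM and 5.39 for T2DM in Ly6C-high MCs, and at 4.74 and 5.06, 4.97 and 4.02 in Ly6C-low MCs. Irf9, the DNA-binding partner of the STAT proteins, was 6.30 in T2DM Ly6C-high MCs against 7.06 and 6.92 in CT and 7.12 in T1DM, a difference of -0.69. Over both subsets the T2DM minus T1DM difference was -1.24 ± 0.25 for Irf7 (adjusted p = 0.0478) and -0.80 ± 0.13 for Irf9 (adjusted p = 0.0202) by limma, and 0 of the 41 passed the limits there. In that fit, where the 2 subsets of a model stand in for replicates, Ifnar1 differed by 0.38 ± 0.15 and Ifnar2 by 0.07 ± 0.13.

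The members also varied together over the 8 libraries, which share subset and mouse group as sources of difference. Pearson's r of a member with the mean of the other members, over 8 libraries and as a description, was highest for Sp100 and lowest for Ddx58 (0.58), Samd9l (0.61), Isg20 (0.67), Phf11b (0.68), Ifi44 (0.71) and Uba7 (0.72).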

How the data were processed

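RNA-seq was made from sorted blood MC subsets of CT, T1DM and T2DM mice, as 8 libraries of RNA pooled from 5 mice. According to the labels, R 3.6.1 was used to summarise, with tximport 1.12.3, the Kallisto 0.45 quantification of reads against mm10. The authors deposited 1 table of log2 normalized values for 16486 genes (16485 distinct symbols), and its normalization is not given in the sources used here. Values ran from -4.05 to 15.6 and were used as deposited. Normalized values hide read depth, and multi-mapping reads are shared out by the quantifier, which affects close gene copies.

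Subset effects, the T2DM against T1DM effect and the 2 interactions were fitted to all genes with limma 3.58.1 (R 4.3.3, eBayes with trend, Benjamini-Hochberg adjustment), with calls at an adjusted p under 0.01 and a log2 difference past 1, the limits of the study. Spread in the interactions came from the CT pairs alone, so single diabetic libraries were assumed to vary like them. Diabetic-minus-CT differences of single libraries were given with no test and counted past 1. The fits were tested on simulated data. Shared 31-base sequences were counted over the GENCODE transcripts of GRCm38, and promoters came from RefSeq (GRCm38.p6), where 33 of 44 members had an entry. The members, role groups, pathway genes and marker lists were chosen with earlier results of these data known. Any member could be named. Full library values were given for members at either end of a comparison or against the median of the set, and pathway genes were named where they passed a test or had a mean log2 value above 5. Alternatives were a low-value filter (mean log2 value of at least 1), 1 added on the linear scale, quantile normalization, eBayes without trend, an adjusted p of 0.05, a replicate block, leaving out libraries and, chosen after seeing the data, leaving out members with over 20% shared 31-base sequences. Values of some single genes of these lists are not reported here.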

Additional observations from a re-analysis of the deposited data

Results flagged for a closer look

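In Ly6C-high MCs, 22 of the 44 interferon-stimulated genes lay above both CT libraries in T1DM and below both in T2DM, opposite directions under the same contrast, where 13% of all genes did so. As all 44 were below both CT libraries in T2DM, this count is that of the members above both in T1DM. They included Ifit3 (0.48 in T1DM and -3.32 in T2DM, log2 difference from CT), Mx1 (0.29 and -2.17), Slfn5 (0.40 and -1.38) and Cxcl10 (0.71 and -1.94). The T1DM differences of the 22 ran from 0.02 for Cmpk2 to 0.71 for Cxcl10, and the T1DM median over all 44 members was 0.05. In Ly6C-low MCs 15 genes did so, again where 13% of all genes did, among them Isg20 (1.11 and -0.32), Rsad2 (0.62 and -0.97) and Cmpk2 (0.59 and -0.67). With 1 library per diabetic group these differences were not tested.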

How the results depend on the processing

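The number of members called in CT mice (16, with 581 genes in all) was 27 (1089) with the low-value filter, which all 44 members passed, 31 (1936) at an adjusted p of 0.05 and 0 (0) by limma's eBayes without trend or when any 1 CT library was left out, though 5810 genes without trend and 4651 to 5241 with a library left out had an unadjusted p under 0.05. The CT replicate numbers did not pair the samples (correlation across genes of the replicate differences of the 2 subsets 0.0089), and a fit with the replicate block, which leaves 1 residual degree of freedom, called 0 members and 0 genes in CT mice, with 5513 genes at an unadjusted p under 0.05. Over all mouse groups 22 members were called (2001 genes), 9 without trend, 13 without any 1 CT library and 10 without the T1DM libraries. For T2DM against T1DM, 2 members (97 genes) became 0 (26) without trend, 6 (253) at an adjusted p of 0.05, and 0 to 14 (24 to 146) with 1 library left out. The T2DM interaction called 0 members throughout and, over all genes, 4 with the low-value filter, 3 after quantile normalization and 1 at an adjusted p of 0.05. Medians of the members kept their sign in all 4 diabetic-minus-CT comparisons. T1DM minus CT in Ly6C-high MCs (0.05) was 0.0205 after quantile normalization, 0.0352 to 0.0622 with 1 CT library left out and 0.0265 without members of shared sequence, and in Ly6C-low MCs (0.12) it was 0.0567 after quantile normalization and 0.0811 without members of shared sequence. T2DM minus CT in Ly6C-high MCs (-1.38) was -1.37 with 1 added on the linear scale, -1.39 after quantile normalization and -1.39 to -1.40 with 1 CT library left out, and no member changed sign. In Ly6C-low MCs (-0.29) it was -0.25 with 1 added, -0.31 after quantile normalization, -0.27 without members of shared sequence and -0.27 to -0.29 with 1 CT library left out. The CT subset difference of Samd9l (0.13, not called) was -0.16 after quantile normalization, and the cause was not tested.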
